A study of Mus musculus with 12 samples.

Results

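Genes for proteins of the secondary (specific) and tertiary (gelatinase) granules of neutrophils were followed across cultured mouse bone marrow cells with and without Cre recombinase. The 10 genes were Ltf, Camp, Ngp, Lcn2, Mmp8, Mmp9, Cd177, Pglyrp1, Chil3 (older symbol Chi3l3) and Hp. All probes that the platform annotation assigns to these symbols were taken, which gave 17 of the 45281 probes on the array. Of these, 16 probes, with at least 1 for each gene, met the rule for testing, which asks for detection (p under 0.05 against the array's negative controls) on 3 or more of the 12 arrays. In all, 19274 probes met it.

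Neutrophil precursors fill their granules in sequence. Primary granules, with myeloperoxidase and serine proteases, are made first at the promyelocyte stage. Specific granules follow in myelocytes and gelatinase granules in still later cells, and their proteins bind iron, break bacterial walls or digest matrix. In mice the transcription factor C/EBP epsilon is required for many secondary granule genes, and several of the genes described here, such as Lcn2, Hp and Chil3, are also made by cells other than neutrophils.

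The cells came from marrow of 3-month-old mice with a floxed Bcor allele (Bcor Fl/Y), in which loxP sites enclose exons 9 and 10. Bcor encodes a corepressor of a Polycomb complex. The cells were cultured with stem cell factor, IL-6 and IL-3, infected with an empty retrovirus (control) or with one carrying Cre, selected with puromycin, and purified over Ficoll. In CD34+ control and CD34+ Cre, CD34+ cells had then been sorted, and in BM control and BM Cre they had not. Each of the 4 groups held 3 arrays, and every group therefore shared the floxed allele, the virus backbone, the selection and the cytokines. Each CD34+ arm held 2 marrows: number 2 on 2 arrays (F2-1 and F2-2) and number 4 on 1 array (F4). The BM arrays are numbered as repeats 1 to 3, with no label on whether a repeat is another animal. P-values therefore measure the spread between these samples, which may be technical, and the small number of arrays limits the precision.

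Probes detected per array numbered 15571 to 16372 on CD34+ arrays and 16985 to 17742 on BM arrays. Levels are given as normalised log2 intensities, on which the lowest detected probe of each array lay at 5.24 to 5.60, so that values near 4.5 to 5 are background. Bcor itself fell by 1.15 log2 units in BM (limma adjusted p = 0.00643). In CD34+ cells its difference of -0.48 did not pass (adjusted p = 0.459). The Bcor level on CD34+ Cre F4 was 9.95, beside 8.93 and 9.08 on the other CD34+ Cre arrays and 9.69 to 9.91 on the CD34+ controls, so the library labelled CD34+ Cre F4 did not show the lower Bcor level of the other 2. The position of the Bcor probe relative to exons 9 and 10 was not determined here. Cd34 did not differ between CD34+ control and BM control beyond the spread (log2 difference 0.09, adjusted p = 0.819). It was 1.02 log2 units higher in CD34+ Cre than in BM Cre (adjusted p = 0.00489), and it differed by -1.12 with Cre in BM (adjusted p = 0.00922).

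The promoters of the members were read because C/EBP epsilon is a known regulator of the class in mice. Of the 10 genes, 8 had an entry in the RefSeq promoter table (build GRCm38.p6, 250 bases before to 50 after each start). The C/EBP-type motif searched was TTNNGCAA, on both strands, and it was found in 4 of these 8 windows, those of Ltf, Ngp, Lcn2 and Mmp8. The motif was in 10.8% of all 32851 promoters of the table. The 4 matching stretches of 150 bases are printed because they carry the matches, in capitals. They are written 5′ to 3′ on the strand of the gene: chr9:111019142-111019291 on the plus strand for Ltf, chr9:110419658-110419807 on the plus strand for Ngp, chr2:32387840-32387989 on the minus strand for Lcn2 and chr9:7558279-7558428 on the plus strand for Mmp8.
Ltf: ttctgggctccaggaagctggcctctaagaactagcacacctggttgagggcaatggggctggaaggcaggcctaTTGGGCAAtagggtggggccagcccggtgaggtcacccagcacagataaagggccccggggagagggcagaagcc
Ngp: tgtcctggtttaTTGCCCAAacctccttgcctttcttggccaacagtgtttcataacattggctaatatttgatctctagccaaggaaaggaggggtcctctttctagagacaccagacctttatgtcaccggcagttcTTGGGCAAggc
Lcn2: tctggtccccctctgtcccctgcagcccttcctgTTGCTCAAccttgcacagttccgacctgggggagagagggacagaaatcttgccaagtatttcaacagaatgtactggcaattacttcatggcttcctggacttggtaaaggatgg
Mmp8: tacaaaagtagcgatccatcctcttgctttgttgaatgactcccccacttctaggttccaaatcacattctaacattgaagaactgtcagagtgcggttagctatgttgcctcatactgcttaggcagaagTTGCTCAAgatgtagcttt
Counted from the base just before the start (-1), the Ltf match began at -75, the Ngp matches at -138 and -11, the Lcn2 match at -216 and the Mmp8 match at -19. GAGGAA, the core recognised by PU.1, was in 5 of the 8 windows and in 28.3% of all promoters. TGTGGT, the core recognised by RUNX factors, was in 1 of the 8 and in 16.8% of all. No match of one motif overlapped a match of another. A match is a description of letters only.

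In unsorted BM, the granule genes stood far higher with Cre than without it. All 16 tested probes, covering all 10 genes, passed the threshold of an adjusted p of 0.05 with Cre higher, and for each probe the 3 Cre arrays lay above the 3 controls. Across the array 7.09% of tested probes were called higher with Cre in BM, and 15.8% had every Cre array above every control. Of the 16, 7 probes met the rule for testing only through the BM Cre arrays and so had to be higher there. The other 9 met it on the 9 arrays outside BM Cre. The members were chosen with earlier results of these data known, so their count is a description. The median difference was 4.36 log2 units over the 16 probes and -0.07 over all tested probes. In bulk RNA, fewer cells of a type and less RNA per cell cannot be told apart.

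Genes for proteins that bind iron, siderophores or haemoglobin were higher with Cre. Ltf (lactoferrin, which binds iron) had levels of 6.19, 7.65 and 8.08 in BM control and of 13.56, 13.71 and 12.08 in BM Cre (probe ILMN_2754364). The lowest Cre array thus lay well above the highest control, and Cre 3 was the lowest of the Cre arrays. The difference was 5.81 ± 0.48 (SE) log2 units, a 56.2-fold change (limma adjusted p = 4.6e-06). A second Ltf probe (ILMN_2889020) was below background in the controls, at 4.61 to 4.87, and reached 8.91, 9.11 and 7.40 with Cre. Its change was at least 8.83-fold (adjusted p = 1.32e-05). Here and below, "at least" sets the brighter group's mean against the detection limit of a group in which no array detected the probe.

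Lcn2 (lipocalin 2, which captures bacterial siderophores) had levels of 5.36, 7.43 and 8.12 in BM control and 13.79, 13.64 and 12.95 in BM Cre. The controls differed widely among themselves, but the groups did not overlap. The difference was 6.49 ± 0.68, an 89.9-fold change (adjusted p = 3.64e-05), and its standard error was the largest of the 16 probes. Without BM control 1 the change was 51.4-fold (adjusted p = 7.98e-05). Hp encodes haptoglobin, which binds free haemoglobin. Its brightest probe (ILMN_2944824) was undetected in BM control, at 4.52, 4.67 and 4.99, and lay at 10.60, 10.38 and 10.62 in BM Cre, at least 36.8-fold higher (adjusted p = 1.32e-09). The 3 Cre arrays were close to each other and far above every control. The other Hp probes were higher with Cre too (adjusted p = 1.35e-06 and 2.13e-07). ILMN_2668510, undetected in control, was at least 13.2-fold higher, and ILMN_2668509, detected on 2 of 3 controls, is given no fold. Because the controls lay at background, the sizes of the Hp changes cannot be set against each other.

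Genes for antimicrobial and bacteria-binding proteins also stood higher. Camp (cathelicidin, precursor of an antimicrobial peptide) had control levels of 4.96, 6.31 and 6.86 and Cre levels of 12.24, 12.20 and 11.48. BM control 1 did not detect it, so no fold is given. The difference was 5.93 ± 0.40 (adjusted p = 7.17e-07). Ngp (neutrophilic granule protein, a relative of the cathelicidins) had control levels of 6.33, 6.48 and 7.14 and Cre levels of 13.22, 12.93 and 12.42, a 73.9-fold change (6.21 ± 0.25, adjusted p = 8e-09). Pglyrp1 (peptidoglycan recognition protein 1, which binds bacterial cell walls) was even within each group. It lay at 7.16, 7.31 and 7.64 in control and at 13.32, 13.32 and 13.34 in Cre, a 61.9-fold change (5.95 ± 0.17, adjusted p = 3.14e-10). Its second probe (ILMN_1250599) was undetected in control and at least 4.03-fold higher with Cre (adjusted p = 4.92e-06).

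The genes for the matrix proteases and the surface protein were also higher with Cre. Mmp9 (gelatinase B, the protein for which gelatinase granules are named) had levels of 5.43, 5.95 and 6.40 in control and of 8.75, 9.11 and 7.75 in Cre. The change was 6.11-fold (2.61 ± 0.35, adjusted p = 0.000308). Mmp8 (neutrophil collagenase) was near background throughout, with 4.53, 4.75 and 5.08 in control and 5.40, 5.51 and 5.77 in Cre. The Cre arrays were just past detection, and the change was at least 1.17-fold (0.77 ± 0.16, adjusted p = 0.00543). Cd177 (a membrane-anchored glycoprotein of the neutrophil surface and granules) lay at 4.63, 4.52 and 4.64 in control and at 7.40, 7.39 and 5.43 in Cre, at least 2.66-fold higher (2.14 ± 0.40, adjusted p = 0.00297). BM Cre 3 was by far the lowest of the Cre arrays, and without it the log2 difference was 2.80 (adjusted p = 2.61e-07). The second Cd177 probe (ILMN_1225233) was detected on BM Cre 1 and 2 only and was not tested. Its levels were 5.73, 5.47 and 4.89 in BM Cre.

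Chil3 (Ym1, a chitinase-like protein of mice without chitinase activity, made by neutrophil precursors and some macrophages) was detected on every BM control array by all 3 of its probes. The brightest (ILMN_3117876) read 8.58, 11.37 and 10.43 in control and 14.39, 14.90 and 13.88 in Cre. The second (ILMN_2712986) read 8.09, 10.87 and 9.64 in control and 13.99, 14.37 and 13.61 in Cre. The third (ILMN_3043036) read 6.46, 8.83 and 7.41 in control and 12.33, 13.28 and 11.86 in Cre. On all 3 probes BM control 1 was the lowest array and control 2 the highest of the controls. The changes were 19.2-fold, 22.0-fold and 30.3-fold (adjusted p = 0.000433, 0.000572 and 3.57e-05). Without BM control 1 the first 2 were 11.2-fold and 13.3-fold (adjusted p = 0.00078 and 0.00212). Without BM control 2 the 3 changes were 29.5-fold, 34.9-fold and 47.0-fold (adjusted p = 0.000211, 0.000284 and 8.79e-06). Chil3 has a near-identical paralog, Chil4, its neighbour on the chromosome, which was also higher in BM Cre (4.85 log2 units, adjusted p = 0.00018), so signal from these genes could not be separated with certainty.

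**Figure D1:**
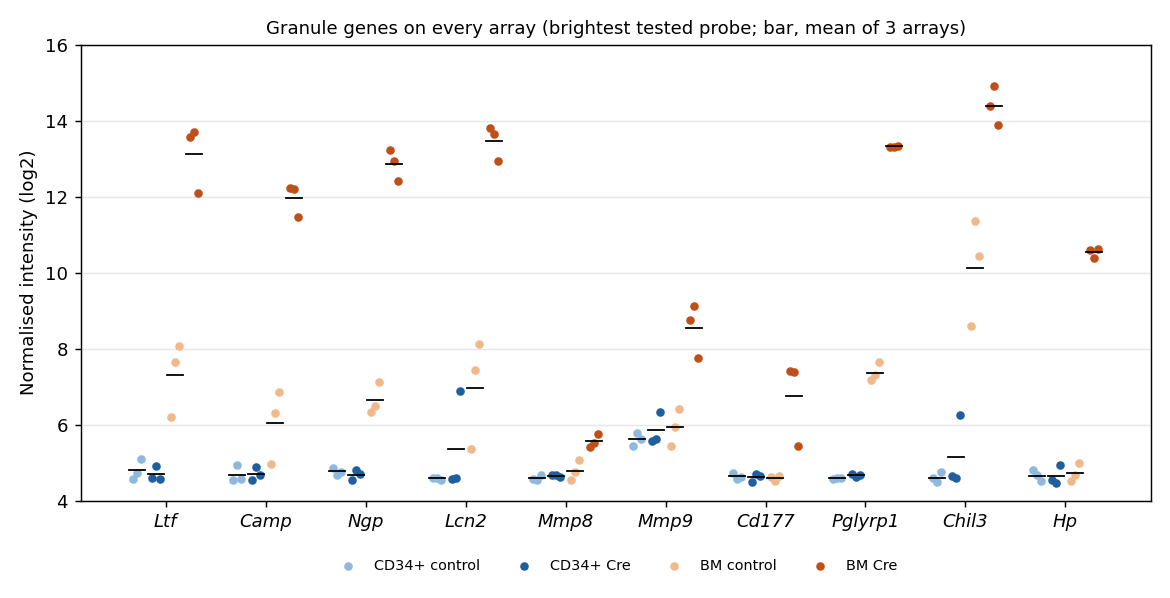
Normalised log2 intensity of the brightest tested probe of each granule gene on every array, with 3 points a group and a bar at the group mean. The BM Cre points lie above the BM control points for all 10 genes. CD34+ points lie near background except for Lcn2 and Chil3 on 1 CD34+ Cre array and for Mmp9, which is mostly near the detection limit.

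In sorted CD34+ cells, no granule gene passed the test for a change with Cre. Of the 16 tested probes, 0 passed the limma test in CD34+ cells, with adjusted p from 0.559 to 0.996 and 0 probes at an unadjusted p under 0.05. Across the array 0.617% of probes (119) were called in either direction. Without CD34+ Cre F4 the share was 9.42% (1816 probes). That fit left 2 repeats of 1 marrow as the CD34+ Cre arm, whose spread may be technical, so its share is no plain background. With the repeats of marrow number 2 averaged, 21 probes were called. Most members were undetected in both CD34+ groups, so that a difference was not detectable at this signal level. Ltf lay at 4.57, 4.74 and 5.10 in CD34+ control and at 4.61, 4.90 and 4.58 in CD34+ Cre. Ngp lay at 4.87, 4.67 and 4.77 and at 4.55, 4.80 and 4.70, and Pglyrp1 at 4.57, 4.59 and 4.59 and at 4.70, 4.63 and 4.67. All of these values are below the detected range. Mmp9 was the member detected most widely in CD34+ cells, on 5 of 6 arrays, at 5.44, 5.78 and 5.63 in control and 5.57, 5.64 and 6.34 in Cre. Its difference was 0.23 log2 units, with a 95% interval from -0.54 to 1.00.

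One CD34+ array stood apart from the others. CD34+ Cre F4 was the only CD34+ array to detect Lcn2, at 6.89 beside 4.55 to 4.61 on the other 5. It was also the only one to detect Chil3, with 6.25, 6.80 and 5.67 on the 3 probes, and to detect Hp on 2 probes, at 5.61 and 5.65. Ltf, Camp, Ngp, Mmp8, Cd177 and Pglyrp1 were undetected there too. This is the array on which Bcor was not lower. The mean level of the list of other specific and gelatinase granule genes was 7.09 on that array and 6.56 to 6.68 on the other CD34+ arrays. The mature neutrophil list was at 5.98 there and at 5.64 to 5.77 on the others. Lyz2, a lysozyme of the first list that macrophages also make, was at 10.50 there and at 5.93 to 8.02 on the others. The mean of the monocyte and macrophage list was highest on that array as well, at 6.11 beside 5.70 to 5.90. Its genes did not move alike there. Gpnmb was at 10.62 beside 4.74 to 7.58, while F13a1 was at 5.22 beside 6.95 to 9.07. The part of these cells in the Lcn2, Chil3 and Hp signals was not tested. Without CD34+ Cre F4, 0 member probes passed in CD34+ cells, beside the 9.42% of all tested probes then called.

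**Figure D2:**
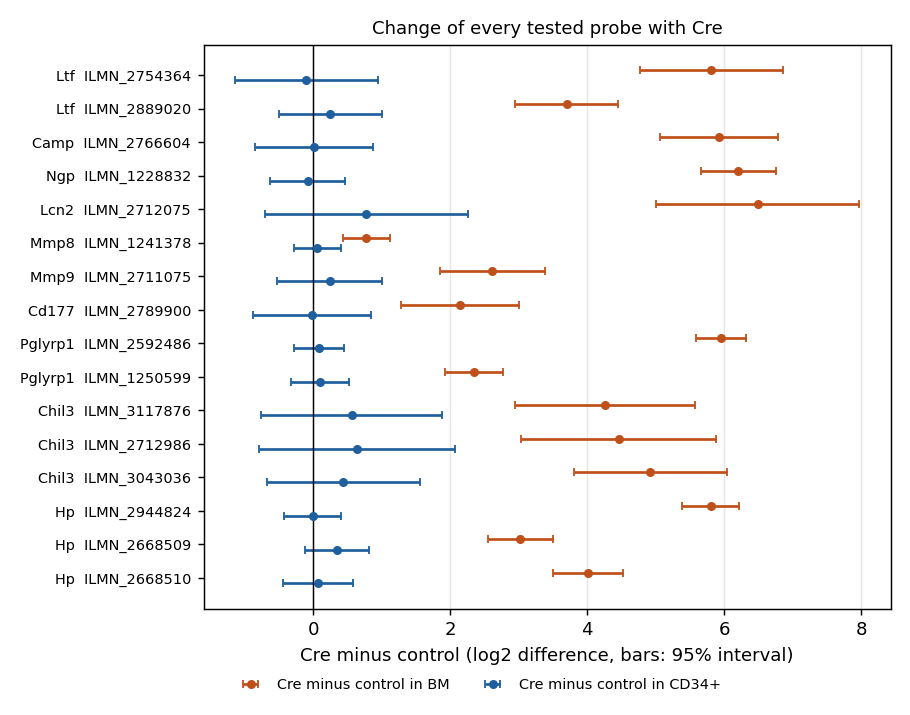
Cre minus control in log2 units for each of the 16 tested probes, in BM (orange) and in CD34+ cells (blue), with 95% intervals from the limma fit. In BM all 16 intervals lie above 0, with differences from 0.77 for Mmp8 to 6.49 for Lcn2, and in CD34+ cells all 16 include 0.

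The test of the difference between the Cre effects in the 2 populations was passed by 15 of 16 probes and 9 of 10 genes, each with the CD34+ effect below the BM effect. Across the array 3.48% of probes were called in that direction. These differences share the members' BM values with the comparison above. For the 7 probes tested only through the BM Cre arrays, the rule for testing favoured this direction, so the count is a description. For members undetected in CD34+ cells the size of the difference is set by background and has no order. Among these were Ngp (-6.29 log2 units, adjusted p = 4.42e-07), Ltf (-5.92, adjusted p = 0.000192) and Camp (-5.92, adjusted p = 3.83e-05). Lcn2 differed by -5.72 (adjusted p = 0.00356), by -4.92 without BM control 1 and by -6.49 without CD34+ Cre F4. Mmp9 differed by -2.38 (adjusted p = 0.0152) and Cd177 by -2.16 (adjusted p = 0.0481). Mmp8, at -0.71 ± 0.22, did not pass (adjusted p = 0.104). It passed in a fit with marrow number in CD34+ and repeat number in BM as a block (adjusted p = 0.0468). It also passed with median scaling (adjusted p = 0.0499) and without BM control 3 (adjusted p = 0.045). The Cd177 call was lost when any 1 array other than BM Cre 3 was left out (adjusted p = 0.052 to 0.115). The calls of 2 Chil3 probes were lost without 7 and 9 of the 12 arrays, taken 1 at a time (adjusted p = 0.0517 to 0.0728 and 0.0642 to 0.0888), while the third kept its call throughout. The difference of the brightest Chil3 probe was -3.71 with all arrays, -2.93 without BM control 1 and -4.33 without BM control 2, and that of Cd177 was -2.82 without BM Cre 3. With the 2 repeats of marrow number 2 averaged into 1 sample, 11 of 16 probes passed. The calls lost were those of Mmp9 (adjusted p = 0.095), Cd177 (0.185) and the same 2 Chil3 probes (0.141 and 0.155).

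Control cells already differed between CD34+ and BM for a share of the class. In the control cells 8 of 16 probes and 6 of 10 genes were lower in CD34+ than in BM. Across the array 19.5% of probes were called lower. The genes were Chil3 (at least 24.6-fold lower for the brightest probe, adjusted p = 2.66e-05), Pglyrp1 (at least 3.64-fold, adjusted p = 6.2e-07), Ltf (at least 3.48-fold, adjusted p = 0.00134), Lcn2 (at least 2.75-fold, adjusted p = 0.0149), Ngp (at least 2.21-fold, adjusted p = 0.000107) and Camp (at least 1.45-fold, adjusted p = 0.0161). Mmp8, Mmp9, Cd177 and Hp did not pass, with differences of -0.19, -0.31, 0.04 and, for the brightest Hp probe, -0.07 log2 units. The Camp call was lost without CD34+ control F2-1, BM control 2 or BM control 3 (adjusted p up to 0.0773), and the Lcn2 call without BM control 2 or 3 (adjusted p up to 0.0732). Without BM control 1 the log2 differences of Lcn2 and of the brightest Chil3 probe were -3.19 and -6.29, beside -2.38 and -5.52 with all arrays, and without BM control 2 that of the Chil3 probe was -4.90.

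In Cre cells all 16 probes were lower in CD34+ than in BM, where 22.2% of all tested probes were called lower. The 7 probes that were tested only through the BM Cre arrays had to be lower in CD34+ Cre, so the count is a description. The bounds ran from at least 1.04-fold for Mmp8 to at least 225-fold for Pglyrp1 (adjusted p = 7.01e-12). Ltf was at least 195-fold lower, Ngp at least 163-fold, Camp at least 88.0-fold and Hp at least 32.5-fold. Mmp9, detected in both but mostly near the detection limit in CD34+ Cre, was 6.44-fold lower (adjusted p = 6.69e-05). Lcn2 and the brightest Chil3 probe differed by -8.10 and -9.23 log2 units, with no bound because CD34+ Cre F4 detected them. Without that array Lcn2 differed by -8.87, and without BM Cre 3 Cd177 differed by -2.78. This comparison shares arrays with the Cre comparisons above.

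Within the BM groups the members did not vary alike. BM Cre 3 was the lowest Cre array for 7 of 10 genes by their brightest probe, and for 39.2% of all tested probes. Its difference from the mean of the other Cre arrays was -1.97 log2 units for Cd177, -1.55 for Ltf and -1.18 for Mmp9. It was -0.66 for Ngp, -0.74 for Camp, -0.77 for Lcn2 and -0.76 for Chil3. For Pglyrp1, Hp and Mmp8 that array was level or higher, by 0.02, 0.13 and 0.31. BM control 1 was the lowest control for 9 of 10 genes and for 31.3% of all tested probes. Its difference from the mean of the other controls was -2.42 for Lcn2, -2.31 for Chil3, -1.67 for Ltf and -1.63 for Camp, and -0.31 for Pglyrp1. The eosinophil list, at 8.83 on BM control 1 and 7.38 and 6.89 on controls 2 and 3, was highest on the array where the members were lowest. The mature neutrophil list (6.89, 7.78 and 8.02 on controls 1, 2 and 3) and the monocyte and macrophage list (7.06, 8.38 and 7.70) were lowest on BM control 1, as the members were. Arg1 and Mrc1, macrophage genes of the latter list, had the order of Chil3 over the controls, at 5.12, 8.38 and 7.30 and at 6.31, 9.57 and 8.38. Among genes of that list with another order were Cx3cr1, Ccr2, F13a1 and Ly6c1, each higher on control 1 than on control 2. Cx3cr1 lay at 9.96, 8.94 and 9.88 and Ccr2 at 8.24, 7.29 and 8.27. The part of these cells in the members' spread was not tested.

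**Figure D3:**
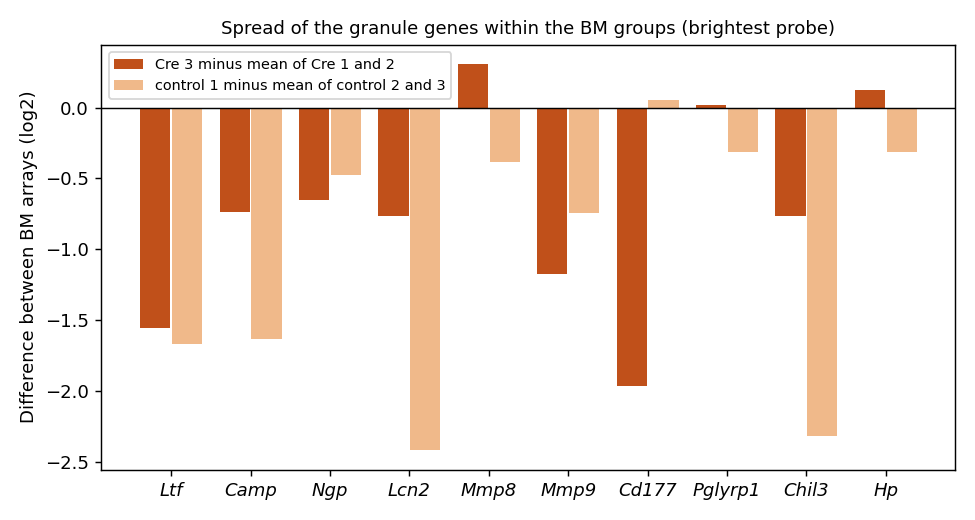
Difference in log2 units between 1 BM array and the mean of the other 2 of its group, for the brightest probe of each granule gene, with BM Cre 3 in dark orange and BM control 1 in light orange. Bars reach -1.97 for Cd177 on Cre 3 and -2.42 for Lcn2 on control 1, and those of Pglyrp1 and Hp are short, the longest at -0.31.

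Other genes of the granule programme were read from lists, each gene by its brightest tested probe. The lists were chosen by known roles, but with earlier results of these data known. Of genes tested at this level, 8.33% were called higher and 7.55% lower in BM with Cre. Of 16 measured genes of the list of other specific and gelatinase granule genes, 12 were higher and 0 lower, with a median of 2.38 log2 units. Of these, Olfm4, Lrg1, Wfdc21, Fcnb and Trem3 met the rule for testing only through the BM Cre arrays. For such genes, here and in the lists below, that rule favoured a higher level in BM Cre, so the list counts are descriptions. Chil1 (a secreted chitinase-like protein) was higher by 5.61 ± 0.22, Trem3 (a receptor of myeloid cells) at least 50.8-fold and Lrg1 (leucine-rich alpha-2-glycoprotein) at least 14.2-fold. The lists also hold genes that other cells make. Among the members of this list not measured were Cybb and Itgam.

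Primary granule genes stood higher too. Of 12 measured, 6 were higher and 2 lower, with a median of 1.91. Mpo (myeloperoxidase) was at 5.02 in BM control, where 1 of 3 arrays detected it, and at 15.47 in BM Cre (adjusted p = 2.26e-11), and is given no fold. Prtn3 (proteinase 3) was at least 443-fold higher and Elane (neutrophil elastase) at least 295-fold. Serpinb1a (a protease inhibitor) and Cd63 (a granule membrane protein) were the 2 lower, with differences of -0.65 and -0.32. In the list named mature neutrophil surface and cytosol, whose genes are not all limited to such cells, 9 of 12 measured were higher and 0 lower. Cxcr4 (a chemokine receptor) was higher by 4.79 log2 units and Cxcr2 (a chemokine receptor of mature neutrophils) at least 6.40-fold. Csf3r (the G-CSF receptor), detected on 1 of 3 controls, was at 5.20 in BM control and 8.80 in BM Cre. Ly6g had no probe with that symbol. Mpo, Elane, Prtn3, Nkg7, Cxcr2 and Fpr2 met the rule for testing only through the BM Cre arrays.

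Transcription factors of granulocyte maturation were higher for 6 of 12 and lower for 0, with a median of 0.93 log2 units. Cebpe (C/EBP epsilon) was at 5.48 in BM control and 12.06 in BM Cre (adjusted p = 5.16e-08). Cebpa (C/EBP alpha) was at least 4.59-fold higher and Gfi1 (a repressor needed for neutrophil maturation) by 1.38 ± 0.17 log2 units. Of these Gfi1 was detected on all BM control arrays, Cebpe on 1 of 3 and Cebpa on 0. The others called higher were Cebpb (1.24 log2 units), Spi1 (0.65) and Irf8 (at least 2.03-fold). This list too holds genes that other cells make. Cebpe, Cebpa and Irf8 met the rule for testing only through the BM Cre arrays.

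Markers of other cells moved as well. Eosinophil genes were higher for 5 of 6 measured (Prg3 by 6.77 and Epx by 6.53 log2 units, and Alox15) and monocyte and macrophage genes for 7 of 14 (Ly6c1 by 5.59 and Cd14 by 3.02, and Retnla). In the mast cell and basophil list Prss34, Mcpt8 and Hdc were higher by 6.52, 3.24 and 2.71, while 5 of 13 genes were lower. The lower genes were Mrgprb2 (-4.10), Tpsb2 (-1.34), Kit (-0.89), Ms4a2 (-0.80) and Fcer1a (-0.32). Of 5 erythroid genes 3 were higher, among them Car1 at least 9.36-fold, Klf1 by 3.02 and Hba-a1 by 2.34. Of 4 stroma and endothelium genes 3 were higher, with Igfbp4 by 3.05, Vcam1 at least 3.05-fold, and Acta2. Alox15 and Acta2 were detected on 1 and Retnla on 2 of the 3 controls, so no size is given for these. Alox15, Acta2, Retnla, Arg1, C1qb, Car1 and Vcam1 met the rule for testing only through the BM Cre arrays. Of the B, T and NK cell list, 0 genes met the rule for testing. The mean level of the measured eosinophil genes was 6.89 to 8.83 on the BM control arrays and 12.29 to 12.46 on the BM Cre arrays. That of the monocyte and macrophage genes was 7.06 to 8.38 and 9.52 to 9.89, and that of the mast cell and basophil genes 13.42 to 13.77 and 13.60 to 14.04. The erythroid genes lay at 6.42 to 6.90 and 8.22 to 9.28, and those of stroma and endothelium at 5.78 to 5.85 and 8.25 to 8.39. Except for mast cells and basophils, these ranges did not overlap between the groups. Siglecf and Ccr3 (eosinophil surface receptors), C1qa (a macrophage complement gene), Alas2 (erythroid haem synthesis) and Col1a1, Col3a1 and Cdh5 (stroma and endothelium) had probes that did not meet the rule for testing. The part of these cell types in the granule genes' differences was not tested. In CD34+ cells, these lists held 0 genes called higher, and 1 called lower in the mast cell and basophil list.

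**Figure D4:**
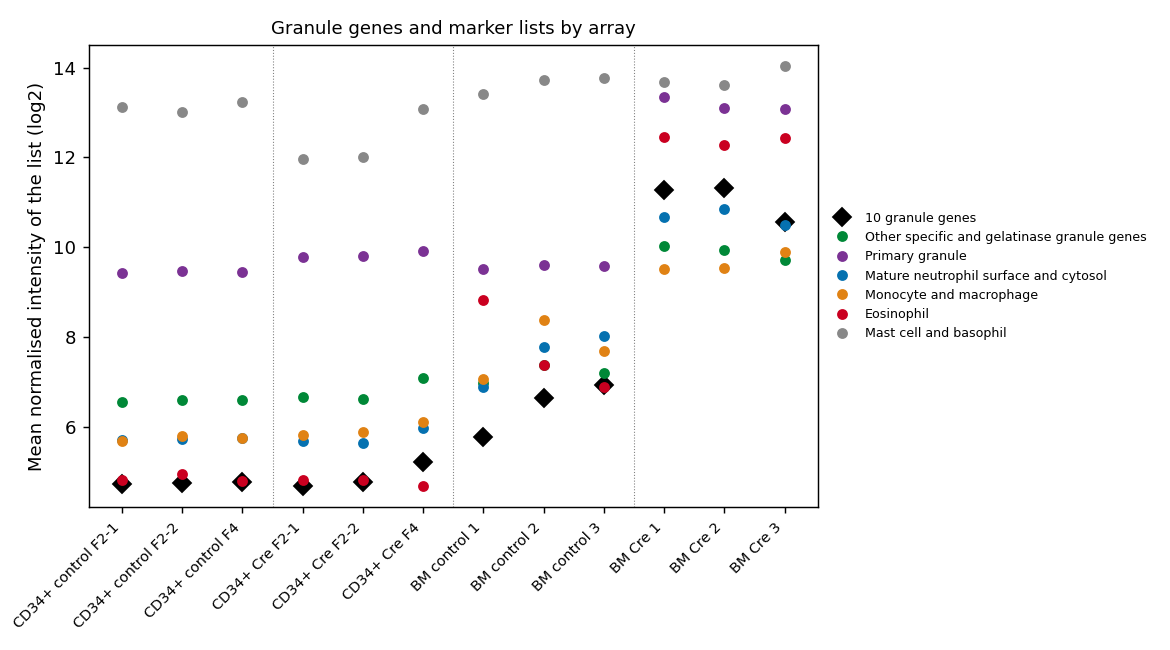
Mean normalised log2 intensity per array of the 10 granule genes (diamonds) and of 6 marker lists (dots), with dotted lines between groups. The granule genes lie at 4.69 to 4.79 on 5 CD34+ arrays, at 5.23 on CD34+ Cre F4, at 5.77 to 6.94 in BM control and at 10.57 to 11.31 in BM Cre.

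The genes most like the members' mean profile across the 12 arrays, by Pearson's r, were Prr33 (0.995), Cstdc4 (0.994), Chil1 and Akr1c18 (0.991 each), Csta3 and Dmxl2 (0.990 each). The 12 arrays share their 4 group means, so these values describe the ordering of arrays and no more. Cstdc4 lay at 7.02, 8.44 and 9.91 in BM control and 14.69, 14.81 and 13.64 in BM Cre, with Cre 3 the lowest as for Ltf. It was also at 6.41 on CD34+ Cre F4, beside 5.06 to 5.35 on the other CD34+ arrays.

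The authors' deposited value table gave most of these genes no signal. In it 15 of 17 member probes were at its floor of 24 on every BM Cre array, and 10 were at 24 on every array of the series. Of the 15, 9 had a scanner signal over 500 on all 3 BM Cre arrays. The brightest Ltf probe, for example, read 13562, 13717 and 5078 on the scanner table and 24 in the value table. Across the array 6807 probes had a scanner signal over 500 on all BM Cre arrays, and 104 of these were at 24 there. The 2 member probes above the floor were Mmp9, at 648, 575 and 270, and Hp ILMN_2668510, at 431, 426 and 476. On CD34+ Cre F4 the value table held Lcn2 at 74.6, the 3 Chil3 probes at 51.8, 69.0 and 29.5 and Hp ILMN_2668509 at 28.7, while these probes were at 24 on every BM Cre array. For them the value table thus ran opposite to the scanner signal between those groups. The scanner table was used for every value above, and how the value table came to hold 24 for these probes was not tested.

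**Figure D5:**
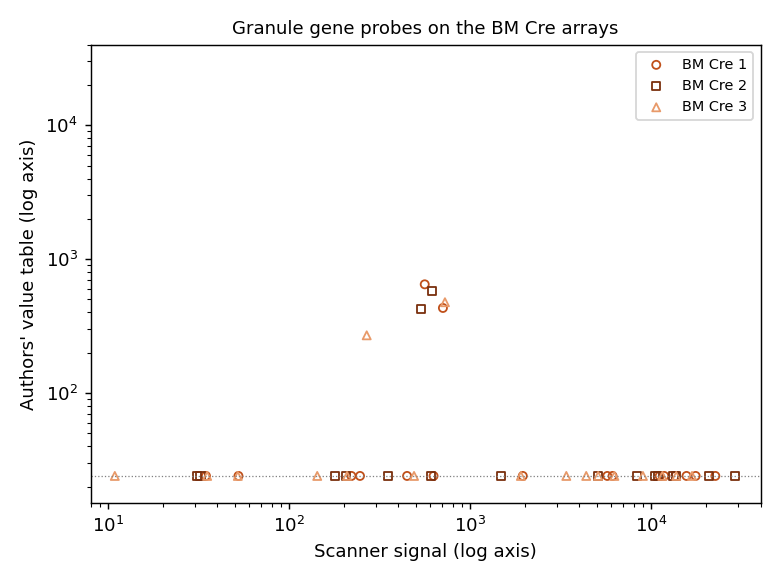
Authors' value table against scanner signal for the 17 granule gene probes on the 3 BM Cre arrays, both on log axes, with a dotted line at the floor of 24. Points of 15 probes lie on the floor whatever their scanner signal, and Mmp9 and 1 Hp probe lie above it.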

How the data were processed

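Gene expression in 12 samples was read on 1-colour Illumina arrays with 45281 probes. The deposited scanner output gives, per the file headers, a signal intensity of every probe beside its detection p-value. How it was made is not given in the sources used here. The authors' value table, also deposited, holds a scaled intensity with a floor of 24, at which some probes with a high scanner signal also stand. RMA is listed in the submitters' processing notes, with no version. Here the scanner intensity was background corrected, quantile normalised and put on a log2 scale by neqc (limma 3.58.1, R 4.3.3), whose offset of 16 compresses folds near background.

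A probe was tested when it was detected (p under 0.05) on 3 or more of the 12 arrays. A limma fit with an intensity trend held the 4 groups (8 residual and 4.12 prior degrees of freedom), and 5 comparisons were adjusted by Benjamini-Hochberg over 19274 probes. Symbols came from the platform annotation, updated by RefSeq (assembly GRCm38.p6): 34885 probes had 1 symbol, 18 several and 10378 none here. For lists, the brightest tested probe stood for each of 10315 genes. The script was tested on simulated data. Members and lists were chosen with earlier results of these data known. Named genes were all members, Bcor and Cd34, up to 3 genes a list by smallest p in BM, and the 6 genes most like the members. Serpinb1a, Cd63, Chil4, Lyz2, Gpnmb, F13a1, Arg1, Mrc1, Cx3cr1 and Ccr2 were added after their values were seen. So were Mrgprb2, Tpsb2, Kit, Ms4a2, Fcer1a, Cebpb, Spi1, Irf8 and the genes named as not measured. The further list genes named as tested only through the BM Cre arrays were also added then. All tested neighbour genes are named. Deviations from group means were correlated between same-numbered control and Cre samples, at 0.12, 0.40 and 0.35 in BM and 0.35, 0.33 and 0.49 in CD34+. Differently numbered samples were not compared, so these values cannot show that the numbers pair the samples. A fit with that block was run as an alternative. Other alternatives were no background correction, median scaling, an offset of 50, no or a stricter filter (detection p under 0.01), gene-level values, averaged repeats, separate fits, no trend, the authors' table and each array left out.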

Additional observations from a re-analysis of the deposited data

Results flagged for a closer look

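The Cre effect differed between CD34+ cells and BM for 15 of the 16 tested probes by limma's interaction term. Each value is the CD34+ effect minus the BM effect in log2 units. It was -5.92 and -3.45 for Ltf, -5.72 for Lcn2 and -5.81, -2.68 and -3.94 for Hp. For the genes of antimicrobial and wall-binding proteins it was -5.92 (Camp), -6.29 (Ngp) and -5.87 and -2.25 (Pglyrp1). For Mmp9 it was -2.38, for Cd177 -2.16 and for the 3 Chil3 probes -3.71, -3.82 and -4.49. Because most members were undetected in CD34+ cells, these values largely repeat the BM change. Of the 16 probes, 7 were tested only through the BM Cre arrays, which favoured a lower CD34+ effect for them.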

How the results depend on the processing

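In BM, all member probes tested kept their call under 24 alternatives, with a highest adjusted p of 0.0303 (Mmp8, without BM control 1). In CD34+ cells 0 were called under any of the 24 (lowest adjusted p = 0.361). With the authors' value table, which had only 2 member probes to test, the calls numbered 2 in BM, 2 for the difference of effects, 0 in control cells and 2 in Cre cells. With 1 probe a gene they numbered 10, 9 and 10 in BM, for the difference and in Cre cells, since fewer probes were tested. With 1 array left out the calls ranged from 16 to 16 in BM, 0 to 0 in CD34+, 12 to 15 for the difference, 6 to 8 in control cells and 16 to 16 in Cre cells. For the difference of effects, 13 probes were called with no background correction, which lost 2 Chil3 probes (adjusted p = 0.0525 and 0.0638). An offset of 50 and no trend each called 14 and lost Cd177 (adjusted p = 0.0794 and 0.0551). Median scaling called 16, adding Mmp8 (adjusted p = 0.0499). With the repeats of marrow number 2 averaged, 11 probes were called for the difference of effects, and Mmp9 was lost too (adjusted p = 0.095). With CD34+ arrays of marrow number 2 alone, an alternative added after seeing the data, 14 were called. The replicate block called 16 member probes in BM, 0 in CD34+ and 16 for the difference, adding Mmp8, and changed no other member call. It raised the calls over all probes in BM from 2706 to 5078, in CD34+ cells from 119 to 907 and for the difference from 916 to 1949. Over all alternatives the calls ranged from 1432 to 5078 in BM, 14 to 2059 in CD34+ and 306 to 1949 for the difference. They ranged from 3916 to 9730 in control cells and 5041 to 10769 in Cre cells. These fits did not all test the same number of features. The lowest counts in control and Cre cells were of 10315 genes, beside 7693 and 9469 of 19274 probes in the main fit. The lowest counts in BM and for the difference were of 18054 probes of the authors' table. The cause of the calls lost in control cells was not tested. With no filter, 17 of 17 member probes were called in BM. Signal near background limits Mmp8 and Cd177, and in CD34+ cells all members. Mmp9 lay there at 5.44 to 6.34, near the detection limit on most arrays.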

Other observations

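The immediate protein-coding neighbours of the members on the chromosome were looked up in RefSeq. Over all genes 8.33% were called higher and 7.55% lower in BM. Of 20 neighbours, 11 had a tested probe in the BM comparison, of which 1 was higher with Cre (Chil4, beside Chil3) and 1 lower (1110008P14Rik, beside Lcn2, log2 difference -0.47, adjusted p = 0.0248). Ccrl2 beside Ltf (0.24, adjusted p = 0.833), Klhl18 beside Ngp (0.11, adjusted p = 0.877) and Dhodh beside Hp (0.06, adjusted p = 0.897) did not pass. Nor did Ccdc61 beside Pglyrp1 (0.18) and Cdc25a beside Camp, the largest difference after Chil4 (1.12, adjusted p = 0.0825). Also not called, with negative differences, were Ptges2 beside Lcn2 (-0.27), Ptpn23 beside Ngp (-0.18), Zfp335 beside Mmp9 (-0.12) and Txnl4b beside Hp (-0.04).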
